A study of Oryza sativa Indica Group with 64 samples.

Results

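The 200 genes described here were highest 10 h after dawn in control leaves of field-grown rice and had the widest daily ranges of all genes with that timing. They were selected on measured values. CPM, the count of a gene scaled to 1000000 gene counts of its library, was taken as log2(CPM + 1), and the level of a gene at a time point was the median over 4 Control libraries. Of 57174 genes listed, 761 were highest at 10 h with a daily range, the highest level minus the lowest, of at least 2 on the log2 scale, and the 200 with the largest range were kept. Their ranges ran from 9.90 down to 3.634 with a median of 4.46, and the first gene outside the list had 3.631. The Control course of these genes is therefore a description, and tests are given for the WNT libraries, which the selection did not use.

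Most transcripts of a plant leaf rise and fall over the day. Light, temperature, sugars made in photosynthesis and the circadian clock each drive part of this cycle, and the clock can hold the phase of a transcript when conditions change. Afternoon phases lie between the light-driven morning programme and the evening genes that accumulate around dusk. Night temperature is of interest in rice because warm nights lower grain yield and quality.

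The leaves, flag leaves in the study's wording, came from IR64, an indica rice variety grown on a plot in the Philippines in the dry season. Control plants had no added heat, and plants of the WNT group (warm night temperature in the labels, high night temperature in the study's wording) were warmed at night by infrared heaters. Polyadenylated RNA was sequenced at dawn, 3 h, 7 h and 10 h after dawn, at dusk, and 14 h, 17 h and 23 h after dawn. Each of the 16 combinations of treatment and time had 4 libraries, 64 in all. Neither plots nor plants are named for the replicates, so p-values measure the spread between these samples, which may be technical, and an effect of plot position cannot be told apart from that of WNT.

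The libraries held between 1714647 and 37248564 gene counts (median 8627815), and no member was at 0 counts in any 10 h library. The gene identifiers are not paired with names in the files, and 0 of them matched the gene table used here. The members are described by their courses, few identifiers are printed, and markers of leaf tissue or of the clock could not be checked. In whole leaf RNA, fewer cells of a type and less RNA per cell cannot be told apart.

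A library that stood apart was WNT replicate 3 at 17 h. The median member level was 4.07, 4.00, 5.95 and 4.16 log2(CPM + 1) in WNT replicates 1 to 4 at 17 h, and the 4 WNT dusk libraries lay between 5.92 and 6.23. All 200 members were above the median of the other 3 libraries in that replicate, by a median of 1.81 on the log2 scale, and 194 were nearer to their WNT dusk level than to the other 17 h libraries. In the other 3 libraries, between 1 and 4 members were nearer to dusk. The members took 3.73% of its counts and 0.668%, 0.691% and 0.779% of the counts of the others. Its depth, at 8594616 counts, lay within that of the others. Results that rest on this library are given with and without it. The fitted tests share an estimate of the spread over all libraries, and leaving this library out also moved counts at other times.

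In Control leaves the members formed a wave that was low before sunrise and high from the afternoon to dusk. The median level over the 200 genes was 2.23 at dawn, 4.07 at 3 h and 5.76 at 7 h. It was 6.87 at 10 h, 6.33 at dusk and 5.03 at 14 h. It then fell to 4.10 at 17 h and 2.07 at 23 h. The levels thus climbed at each sampling from dawn to 10 h and fell at each from 10 h to the last night sample, which stood near dawn.

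The wave was large enough to show in the makeup of the whole library. The members took 0.381% ± 0.129 of gene counts at dawn (SD, n = 4) and 7.16% ± 0.668 at 10 h. At 23 h they took 0.244% ± 0.0394. Across the 4 Control libraries at 10 h the shares were 8.06%, 6.81%, 7.25% and 6.54%. Levels of single members at 10 h spread widely, from 3.83 to 13.55 log2(CPM + 1).

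**Figure D1:**
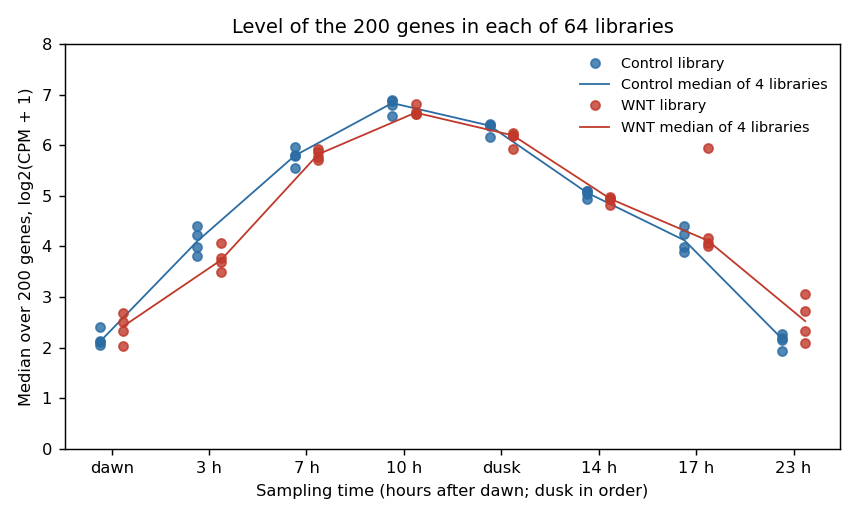
Median level of the 200 members in each library, in log2(CPM + 1), against sampling time, with Control in blue and WNT in red, 1 point per library and lines through the median of each group. The groups overlap at most times, and WNT replicate 3 at 17 h, at 5.95, lies among the dusk values while the other 3 libraries lie between 4.00 and 4.16.

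The peak was mostly a plateau from the afternoon into dusk. The level at 10 h exceeded the next highest time point by a median of 0.31 on the log2 scale, with extremes of 0.00237 and 1.60. For 35 members the margin was under 0.1, and for 11 it was over 1. Dusk was the second highest time for 71.5% of the members and 7 h for 26%, and 2.5% had another time. The number of time points within 1 log2 unit of the highest, the peak included, was 2 for 76 members and 3 for 72. It was 4 for 37 members, and 3 was the median.

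The sampling times are unevenly spaced, and the labels give no hour for dusk, so differences from the neighbouring times are not rates. The level at 10 h was above that at 7 h by a median of 0.95, with quartiles of 0.42 and 1.54, and above that at dusk by a median of 0.42, with quartiles of 0.23 and 0.68. Against 14 h the median difference was 1.64, and against 23 h it was 4.33. At 7 h, 39 members were still more than 2 log2 units below their 10 h level, and at dusk 1 member was. The lowest Control time was 23 h for 52% of the members, dawn for 37.5%, 3 h for 6%, 17 h for 3.5% and 14 h for 1%.

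The members can be divided by their second highest Control time into a dusk side and a 7 h side. The dusk-side genes had a median of 5.58 at 7 h and 6.66 at dusk, and the 7 h-side genes of 6.40 and 5.75, which is how the sides were defined. At 17 h, a time that did not define them, the medians were 4.39 and 3.10. All of these are Control values, which the selection used, and they are given as a description.

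**Figure D2:**
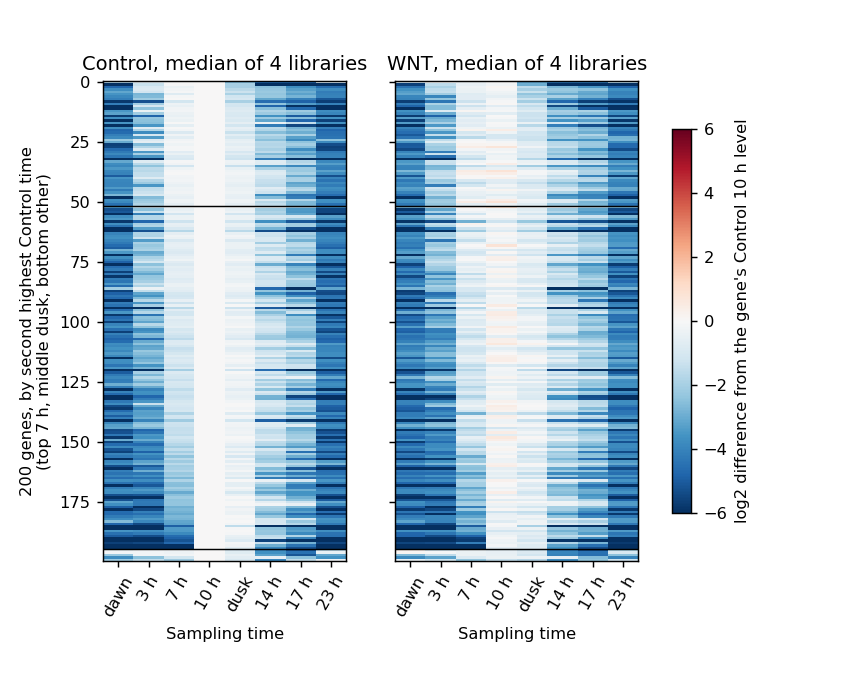
Course of each of the 200 members as the log2 difference from its own Control level at 10 h, in Control (left) and WNT (right), with the genes in rows grouped by the second highest Control time and each cell the median of 4 libraries. Colours stop at -6 and 6. The column for 10 h in Control is 0 by construction, and the pale block from 7 h to dusk and the dark blocks at dawn and 23 h appear under both treatments.

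The WNT libraries show whether the same genes peaked in the same part of the day in leaves that took no part in choosing them. They did for most: 170 of the 200 members (85%) had their highest WNT level at 10 h. Of the others, 15 were highest at 7 h, 10 at dusk, 3 at dawn, 1 at 3 h and 1 at 14 h. The members that left 10 h had small Control margins, with a median of 0.17 and none above 0.49, against a median of 0.33 for those that stayed. All 11 members with a Control margin over 1 were highest at 10 h in WNT.

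The share that kept its time was set beside that of neighbouring genes as a description. Of the 561 genes that met the timing and range criteria but fell outside the 200, 441 (78.6%) were highest at 10 h in WNT. Among the 200 genes with the widest range and a Control peak at 7 h, 74 stayed at 7 h, 35 were highest at 3 h, 32 at 10 h and 58 at dusk. Among the 200 with a Control peak at dusk, 135 stayed and 47 were highest at 10 h. How often a peak time was kept was not tested between the lists.

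**Figure D3:**
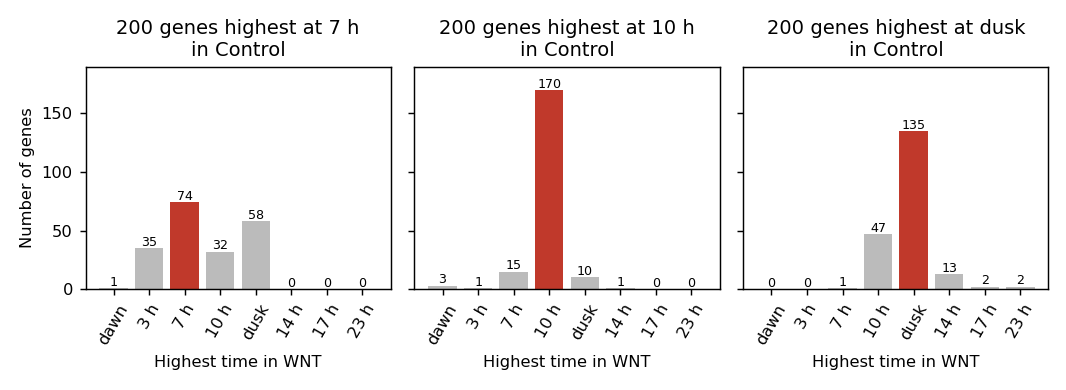
Number of genes whose highest WNT level fell at each sampling time, in 3 panels for the 200 genes with a Control peak at 7 h, at 10 h and at dusk, with bars starting at 0 and the Control peak time in red. The bar at the Control peak time reaches 170 for the members, 74 for the 7 h genes and 135 for the dusk genes.

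The WNT course had the same form as that in Control. The median over the members was 2.41 at dawn, 3.81 at 3 h and 5.81 at 7 h. It reached 6.65 at 10 h and 6.16 at dusk, and then fell from 4.95 at 14 h through 4.18 at 17 h to 2.46 at 23 h. The WNT course of a member correlated with the median Control course over the 8 time points with a median coefficient of 0.94, and 70.5% of the members were above 0.9. These correlations share the daily cycle of the same field and are given as a description. Over all 16 group medians, likeness to the median course of the members had a median of 0.95 and was above 0.9 for 77% of them.

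All 200 members kept a daily range of at least 2 in WNT, the smallest being 2.52. The median range was 4.27, and 153 of the 200 had a smaller range in WNT than in Control, with a median difference of -0.24. Since the members were selected for a wide range in Control, a smaller range in other libraries is in part built into the list, and nothing is read from it.

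Tests within the WNT libraries were made with edgeR's quasi-likelihood test on all 20525 genes that passed a filter on low counts, with Benjamini-Hochberg adjustment over those genes and a threshold of 0.05. All 200 members passed the filter. Against the mean of the other 7 WNT time points, 199 members were higher at 10 h, where 23.2% of all genes tested were. The median difference was 2.41 on the log2 scale, and among the 199 it ran from 0.78 to 6.41. The count was 199 without WNT replicate 3 at 17 h as well.

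The member that did not pass, MH05t0545800, was singled out after its values were seen. In Control at 10 h it stood at 57.9, 30.2, 45.7 and 21.9 CPM, and in WNT at 11.97, 12.99, 13.52 and 19.82 CPM. The groups did not overlap at 10 h, where the Control values also chose the member. Its Control median was nearly as high at 23 h, at 5.06 against 5.25 log2(CPM + 1) at 10 h. At 23 h it stood at 28.1, 38.8, 26.7 and 37.3 CPM in Control. The WNT values there were 15.6, 15.8, 0.489 and 29.0 CPM, and the groups overlapped. At dawn it stood at 7.05, 44.7, 7.64 and 7.51 CPM in Control and at 3.36, 31.8, 25.4 and 32.3 CPM in WNT, with a wide spread and overlap. Its WNT level at 10 h differed from the mean of the other times by 0.41 (SE 0.64, adjusted p = 0.642, edgeR quasi-likelihood test), and its course was the least like the median Control course, with a coefficient of -0.44 over 8 time points.

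The edges of the peak were less well resolved than the peak itself. At 10 h, 63 members were higher in WNT than at 7 h and 0 were lower, where 7.44% of all genes were higher, with a median difference over members of 0.70. The count was 39 without WNT replicate 1 and 41 without WNT replicate 2. No share of all genes is given for these, so a general loss of calls cannot be told apart. It was 51 without WNT replicate 4, where 1242 of 20614 genes tested were higher. It was 78 without WNT replicate 3 at 17 h, where 1596 of 20829 genes tested were higher. Of the 39 members that were more than 2 log2 units below their peak at 7 h in Control, 32 were so in WNT and 35 passed this test.

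Against WNT dusk, 9 members were higher at 10 h and 0 lower, where 1.5% of all genes were higher, and the median difference was 0.66. The count was 30 without WNT replicate 3 at 17 h, where 2.53% of all genes were higher. It was 2, 4 and 3 without WNT replicates 1, 2 and 4. Without replicate 4, 27 of 20614 genes tested were higher, and no share of all genes is given without replicates 1 and 2. DESeq2 called 15 members and 2.12% of all genes, and limma called 52% of the members and 11.9% of all genes. A single member was above both neighbouring times in the main test. Of the 11 members with the sharpest Control peak, 4 passed against 7 h and 0 against dusk. By this test, 10 h and dusk were therefore not resolved in WNT for most members.

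The sides defined in Control could be compared in WNT by setting dusk against 7 h, times that lie on either side of the peak. Of the dusk-side members, 33 were higher at dusk than at 7 h and 2 were lower, with a median difference of 0.36. Of the members on the 7 h side, 0 were higher and 17 were lower, with a median of -0.81. Over all 200 members the counts were 33 and 19, where 10.3% of all genes were higher at dusk and 15.4% lower. Without WNT replicate 3 at 17 h they were 37 and 27, against 2141 and 3226 of 20829 genes tested. By sign alone, 67.8% of the dusk-side members were higher at dusk and 92.3% of those on the 7 h side were lower.

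MH07t0397700 had the widest daily range of the list. It is the most abundant member at its peak, with 15126, 11773, 11539 and 12223 CPM in the Control libraries at 10 h. At 7 h it had 4023, 6912, 3544 and 3537 CPM and at dusk 7922, 4061, 4144 and 5919 CPM. The 10 h values lay above every library of those neighbouring times. By 23 h the Control values were 24.3, 5.68, 6.13 and 21.0 CPM.

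In WNT the same gene had 13309, 9731, 11910 and 12216 CPM at 10 h. The range overlapped that of Control, and the difference was -0.14 (SE 0.83, adjusted p = 0.995, edgeR quasi-likelihood test). Its WNT level at 10 h was above the mean of the other WNT times by 5.68 (SE 0.48, adjusted p = 5.22e-14). At 17 h it stood at 20.4, 36.2, 5996 and 46.6 CPM in WNT, so replicate 3 alone was at a dusk-like level. In the absence of that library the rise to 10 h was 6.48.

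MH03t0085600 had the next widest range and rose late and steeply. At 7 h it was still low, with 8.80, 8.55, 7.45 and 9.09 CPM in Control and 5.74, 4.48, 3.79 and 3.63 CPM in WNT. At 10 h it had 696, 587, 754 and 427 CPM in Control and 676, 545, 555 and 588 CPM in WNT. Every 10 h library was far above every 7 h library under both treatments. The WNT rise from 7 h to 10 h was 6.98 (SE 0.61, adjusted p = 2.13e-12, edgeR quasi-likelihood test). At dusk it stood at 590, 518, 312 and 731 CPM in Control and 451, 375, 211 and 405 CPM in WNT, and WNT dusk was not resolved from WNT 10 h, with a 10 h minus dusk difference of 0.85 (SE 0.46, adjusted p = 0.316).

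The comparison the study was made for is WNT against Control at the same time. The Control values in these differences also chose the members, so counts are given beside the share of all genes and no more is read from them. By group medians, the members' median difference, WNT minus Control, was 0.03 at dawn, -0.26 at 3 h, -0.03 at 7 h and -0.15 at 10 h. It was -0.24 at dusk, -0.06 at 14 h, 0.08 at 17 h and 0.28 at 23 h. Over all genes tested the corresponding medians lay between 0 and 0.13, the highest at 23 h.

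**Figure D4:**
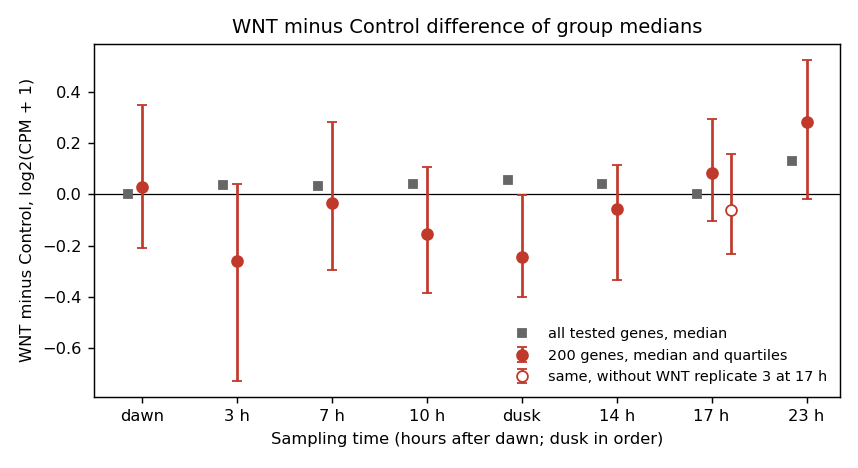
WNT minus Control difference of group medians at each sampling time, in log2(CPM + 1), as the median and quartiles of the 200 members (filled circles and bars) and the median of all genes tested (squares), with the open circle at 17 h leaving out WNT replicate 3. The members' median is lowest at 3 h (-0.26) and dusk (-0.24) and highest at 23 h (0.28), and at 17 h it moves from 0.08 to -0.06 without that library.

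At 10 h, the time that defined the list, 0 members passed the edgeR quasi-likelihood test, as did 0% of all genes, with 10 members (5%) at an unadjusted p under 0.05 against 8.82% of all genes. DESeq2 called 2 members (1%) against 1.14% of all genes. Limma called 43 (21.5%) against 13.3% of all genes, with 5 members higher and 38 lower, against 7.94% of all genes higher and 5.35% lower. All 4 WNT libraries lay below all 4 Control libraries for 23 members, or 11.5% against 3.43% of all genes, and above them for 16, or 8% against 6.97%. When the members were chosen again from 3 Control replicates and the WNT libraries were set against the Control library left out, the median difference at 10 h was -0.19, -0.04, -0.17 and 0.04. The sign of the 10 h difference thus depended on which Control library was used.

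At 3 h, in the morning rise, 25 members were lower in WNT by edgeR's quasi-likelihood test, where 2.75% of all genes were, and 3 were higher, where 4.09% were. The 25 fell by 1.05 to 3.89 on the log2 scale with a median of -1.58, and the 3 rose by 1.17 to 2.56. For 37 members (18.5%) all 4 WNT libraries were below all 4 Control libraries, against 2.7% of all genes, and for 2 they were all above, against 2.83%. The members took 1.52%, 1.66%, 1.53% and 1.23% of counts in Control at 3 h and 0.924%, 0.960%, 0.997% and 0.882% in WNT, and the shares did not overlap. The median member level did overlap, at 3.82, 4.40, 3.98 and 4.23 log2(CPM + 1) in Control and 3.48, 3.76, 4.07 and 3.69 in WNT, where replicate 3 was above 2 of the Control libraries.

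The 25 genes lower at 3 h were picked on their 3 h difference, so smaller differences at the other times are built into the choice, and their values are a description. Over the 25, the median difference by group medians was -0.14 at dawn and -1.21 at 3 h, and it was -0.32 at 7 h and at 10 h. It was 0.17 at 17 h and 0.26 at 23 h. A total of 22 were highest at 10 h in WNT, 21 were lower than Control at 7 h by median level and 20 at 10 h. Of the 25, 19 were dusk-side genes and 6 were on the 7 h side.

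The 3 h count varied with the libraries used. In both directions together it was 28 with all libraries (14% against 6.84% of all genes). It was 37 with DESeq2 (18.5% against 8.37%) and 28 with limma (14% against 5.52%). It was 5 without WNT replicate 4 (2.5% against 0.883%) and 52 without WNT replicate 3 (26% against 8.31%). Leaving out WNT replicate 3 at 17 h alone gave 39 (19.5% against 6.82%). Without Control replicates 1, 2 and 3 it was 17, 16 and 17, for which no share of all genes is given. Depth at 3 h ran from 5777296 to 36597029 counts in Control and from 2941158 to 9972632 in WNT, and unaligned reads from 11.7% to 22.0% and from 10.5% to 12.9%. The part of these values in the result was not tested.

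MH09t0454900 and MH09t0168800 had the largest falls at 3 h and were chosen after their values were seen. MH09t0454900 had 16.3, 14.6, 37.9 and 17.87 CPM in Control at 3 h and 4.50, 5.10, 2.30 and 1.60 CPM in WNT. Every WNT library was below every Control library, and the difference was -2.87 (SE 0.61, adjusted p = 0.00194, edgeR quasi-likelihood test). It passed in 13 of 14 alternative analyses, with an adjusted p of 0.0503 without WNT replicate 4. At 7 h the order was the other way, with 66.3, 105.2, 47.8 and 61.5 CPM in Control and 116.2, 87.7, 103 and 105.01 CPM in WNT, overlapping groups that did not pass (0.50, SE 0.50, adjusted p = 0.797). At 10 h it had 318, 259.4, 352 and 151 CPM in Control and 272, 237, 197.4 and 226 CPM in WNT, again overlapping.

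MH09t0168800 rested on few reads at 3 h. It had 1.80, 2.88, 1.21 and 9.35 CPM in Control, and 0.530, 0.680, 0.144 and 0 CPM in WNT, where no library held more than 2 counts. The difference of -3.89 (SE 1.18, adjusted p = 0.0342) did not pass in 6 of 14 alternatives, where the adjusted p reached 0.192. At 10 h it stood at 126, 121, 123.2 and 79.6 CPM in Control and at 112, 61.0, 49.5 and 78.7 CPM in WNT. The WNT values reached lower but the groups overlapped.

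**Figure D5:**
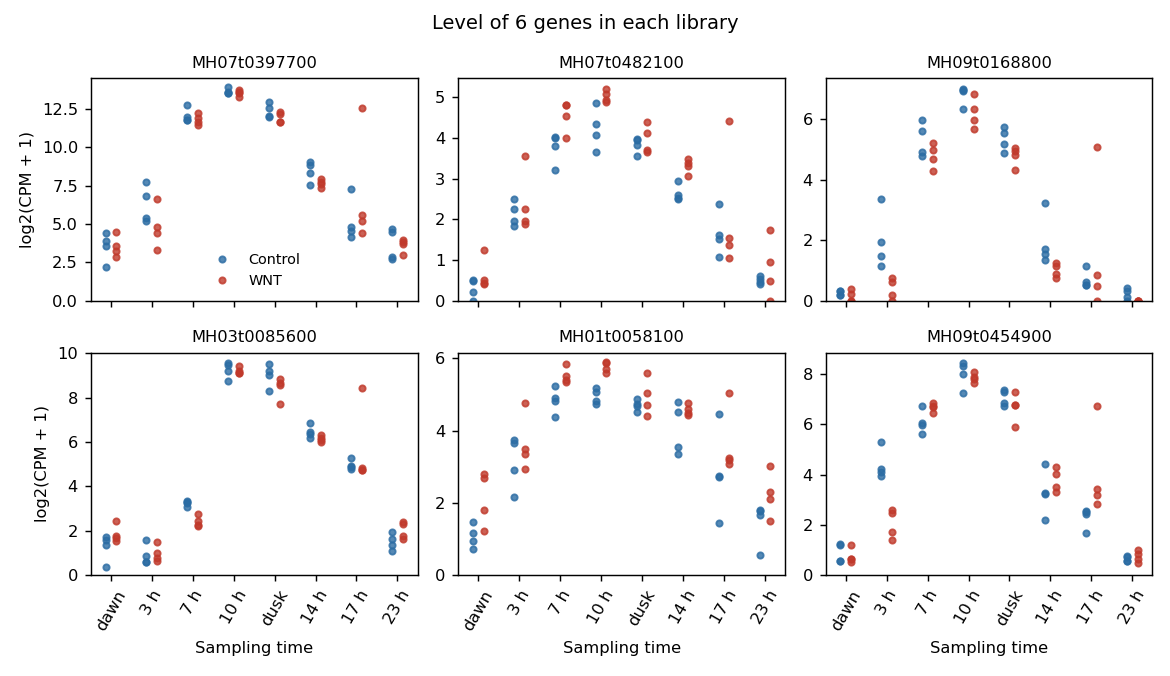
Level of the 6 named members in log2(CPM + 1) against sampling time, 1 panel per gene and 1 point per library, Control in blue and WNT in red. MH07t0482100 and MH01t0058100 lie higher in WNT at 10 h, where neither passed edgeR's quasi-likelihood test. MH09t0454900 and MH09t0168800 lie lower in WNT at 3 h, and WNT replicate 3 stands above the other WNT libraries at 17 h in each panel.

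At the other daytime and early night points hardly any member passed. At dawn 1 member was lower, where 0.404% of all genes differed in either direction, and the count ranged from 0 to 2 when a replicate was left out and was 3 without WNT replicate 3 at 17 h. At 7 h, 0 members passed (0% of all genes), with 16 (8%) at an unadjusted p under 0.05 against 9.3% of all genes. DESeq2 called 2 (1%) against 0.229% of all genes, and limma 5 (2.5%) against 0.663%. At dusk, 0 passed in edgeR (0% of all genes), DESeq2 and limma, with 8 (4%) at an unadjusted p under 0.05 against 4.06% of all genes. By group medians, 151 of the 200 were lower in WNT at dusk and 49 (24.5%) higher, where 59.6% of all genes tested were higher. At 14 h, 0 passed in the 3 tools, where edgeR called 0.00487% of all genes, and 16 members (8%) had an unadjusted p under 0.05 against 5.54% of all genes.

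The values at 17 h turned on a single library. At 17 h, 22 members were higher and 0 lower by edgeR's quasi-likelihood test, where 0.185% of all genes were higher. Without WNT replicate 3 at 17 h, 0 of the 200 passed, as did 0% of all genes, 14 (7%) had an unadjusted p under 0.05 against 3.59% of all genes, and limma called 0 with all libraries kept. DESeq2 called 38 higher with all libraries, where 0.414% of all genes were. In edgeR the members' median difference went from 0.74 with all libraries to -0.07 without WNT replicate 3 at 17 h. The count at 17 h was also 2, 0, 5 and 6 without Control replicates 1 to 4. It was 41 and 34 without WNT replicates 1 and 2, and no share of all genes is given for these fits. Without WNT replicate 4 it was 29, where 37 of 20614 genes tested were higher.

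At 23 h, 0 members passed edgeR's quasi-likelihood test, where 0.00974% of all genes did, and 40 (20%) had an unadjusted p under 0.05 against 14.8% of all genes. DESeq2 called 6 (3%) against 0.857% of all genes, and limma 2 (1%) against 1.1%. Many members were selected with their lowest Control level at this time, which can raise the WNT minus Control difference, and nothing is read from its sign. By group medians 148 of the 200 (74%) were higher in WNT, against 66.7% of all genes tested. The median member level was 2.16, 1.94, 2.28 and 2.20 log2(CPM + 1) in Control and 2.72, 2.33, 3.06 and 2.10 in WNT, and the groups overlapped by 1 WNT library. The lowest time of the day was 23 h for 52% of the members in Control and for 26% in WNT, and dawn for 37.5% and 59%.

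Averaged over the 8 time points, 28 members were higher in WNT and 11 lower by edgeR's quasi-likelihood test, where 10.1% of all genes were higher and 9.01% lower. The members' median was 0.00. The differences ran from 0.26 to 0.80 among those higher and from -0.27 to -0.66 among those lower. Without WNT replicate 3 at 17 h the counts were 17 higher and 37 lower, against 8.5% and 8.32% of all genes, and of the 28 and 11, 17 and 11 remained. Without WNT replicate 3 at every time they were 2 and 30, against 882 and 1034 of 20694 genes tested. With all libraries, 39 members were called in total (19.5%), near the 19.1% of all genes. That total was 22 without Control replicate 3 and 25 without Control replicate 1, for which no share of all genes is given. The balance between higher and lower members thus rested on WNT replicate 3. By the fitted differences, 9 of the 28 members were higher at each of the 8 time points and 0 of the 11 were lower at each. Without WNT replicate 3 at 17 h, 1 of the 17 was higher at each and 10 of the 37 were lower at each. By group medians, 5 of the 9 were higher at each.

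Among those 9 members, which were taken with all libraries, the largest mean rises belonged to MH07t0482100 and MH01t0058100. MH01t0058100 had 27.4, 25.6, 32.6 and 35.3 CPM in Control at 10 h and 57.5, 47.6, 58.3 and 51.0 CPM in WNT, and the groups did not overlap. At 7 h it had 29.2, 19.6, 27.4 and 36.5 CPM in Control and 39.6, 56.9, 44.4 and 41.6 CPM in WNT, again without overlap. Neither time passed by itself (adjusted p = 0.626 at 10 h and 0.67 at 7 h, edgeR quasi-likelihood test). At dusk the groups overlapped, with 24.4, 21.7, 28.3 and 25.4 CPM in Control and 24.99, 47.4, 32.1 and 20.2 CPM in WNT. Its mean difference was 0.77 (SE 0.17, adjusted p = 0.00108), it passed in all 14 alternatives, and it was 0.66 without WNT replicate 3 at 17 h.

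MH07t0482100 stood at 15.98, 11.7, 19.1 and 27.9 CPM in Control at 10 h and at 29.8, 28.6, 35.8 and 32.6 CPM in WNT. The WNT libraries were all above the Control libraries, the nearest being 27.9 and 28.6. The 10 h difference did not pass by itself (0.74, SE 0.49, adjusted p = 0.733, edgeR quasi-likelihood test). Its mean difference was 0.80 (SE 0.21, adjusted p = 0.00495). It was 0.54 without WNT replicate 3 at 17 h and 0.36 (adjusted p = 0.129) without WNT replicate 3 at every time, and with limma it did not pass (adjusted p = 0.0694). At 3 h it had 2.91, 3.74, 10.8 and 2.71 CPM in WNT and at 17 h 1.92, 1.07, 20.4 and 1.59 CPM, and replicate 3 was the highest at both times. By group medians its WNT level was below Control there, at 2.106 against 2.113 log2(CPM + 1) at 3 h and 1.46 against 1.57 at 17 h.

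Whether the WNT effect varied over the day was tested with 7 contrasts of the same model. It did for 12 members by edgeR's quasi-likelihood test, where 0.365% of all genes passed. The largest difference lay at 17 h for 8 of them, at 3 h for 2, and at dawn and 23 h for 1 each. Without WNT replicate 3 at 17 h, 3 members passed (1.5% against 0.216% of all genes), all of them among the 12. An unadjusted p under 0.05 was found for 91 members (45.5%) with all libraries and for 61 (30.5%) without that library. The share of all genes was 10.2% in both fits. The height of the 10 h peak above the other times, set in WNT against Control, differed for 0 members and 0% of all genes, with 6 members (3%) at an unadjusted p under 0.05 against 2.83% of all genes, 0 called by DESeq2 and 1 by limma (0.5% against 1.09% of all genes). The members' median of that difference was -0.21, and -0.04 without WNT replicate 3 at 17 h. The Control height in this difference also chose the members. A smaller height in WNT is thus in part built into the list, and nothing is read from these values.

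The identifiers give little to group the members by. In 2 cases, a pair of members stood next to each other in the list of genes. By the digits that follow MH in the identifier, the members were spread over all 12 values, from 6 members for 12 to 33 for 01, and their shares, beside those of the genes tested, were 16.5% against 14.3% for 01, 8% against 5.23% for 09 and 3% against 5.24% for 12. These shares were not tested.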

How the data were processed

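The authors deposited raw read counts per gene for each library, as whole numbers without normalization. The submitters' processing notes name HISAT2 2 and HTSeq 0.6.0. The genome build, the annotation and whether counting used strand are not given in the sources used here, so overlapping, antisense and near-identical genes are uncertain. The 5 closing lines of each table, which hold uncounted reads, were left out of gene sums. Groups and replicates came from the labels, and 0 libraries were left out of the main analysis.

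Counts were fitted in R 4.3.3 with edgeR 4.0.16 (filterByExpr at its minimum of 10 counts and total of 15, TMM factors between 0.695 and 1.36, glmQLFit with robust estimation, glmQLFTest). The model had 16 group means over 64 libraries, with a common biological coefficient of variation of 0.332. Benjamini-Hochberg adjustment covered 20525 genes. Standard errors came from the change and its F statistic. Fitted differences are on the log2 scale of normalized counts, and levels use CPM by library sum with a pseudocount of 1, computed in Python 3.11.15 and drawn with matplotlib 3.10.9. The scripts were tested on simulated data.

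A count of 3 was taken as the least a library can show, which is 0.345 CPM at 8700244 counts and covers counting error only. Identifiers were printed for the 2 members with the widest range and the 2 with the largest mean rise among called members whose fitted difference had 1 direction at 8 time points. By the same rule 0 falls qualified, and others printed were chosen after their values were seen. The members and lists were chosen with earlier results of these data known. Alternatives were RLE scaling, no filter, DESeq2 1.42.0, limma 3.58.1 (voom with quality weights), a replicate block, each replicate left out, and WNT replicate 3 at 17 h left out. For the member list and peak times, TMM-scaled CPM, means in place of medians and a pseudocount of 0.5 were tried.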

Additional observations from a re-analysis of the deposited data

Results flagged for a closer look

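In groups of 4 libraries, a library far from the other 3 is expected by chance in about 1 group in 20, which is 1.6 of the 32 groups checked, and 4 groups held one. The median member level in WNT replicate 3 at 17 h was 5.95 log2(CPM + 1), above the other 3 libraries. In Control replicate 3 at dusk it was 6.16 log2(CPM + 1), below the other 3. The level of MH09t0168800 in Control replicate 4 at 10 h, 79.6 CPM, was below the other 3, and that of MH09t0454900 in Control replicate 3 at 3 h, 37.9 CPM, was above them. The groups checked did not take in every time point of the named members. The 4 thus leave out MH07t0397700 at 17 h in WNT, with 5996 CPM in replicate 3 and at most 46.6 CPM in the others.

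The WNT effect differed between time points for 12 members (6% against 0.365% of all genes) by edgeR's quasi-likelihood test. It did for 3 (1.5% against 0.216%) when WNT replicate 3 at 17 h was left out.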

How the results depend on the processing

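Counts are given here as percentages of the 200 members. The rise at WNT 10 h above the other WNT times held for 98.5% to 99.5% in every alternative. The list shared 166 to 183 genes with its alternatives, and 164 to 174 members were highest at 10 h in WNT. Above WNT 7 h the share was 31.5%, and leaving out WNT replicate 3 at 17 h gave 39%. Limma gave 47.5%, where 3019 of 20525 genes tested were higher. Above WNT dusk it was 4.5%, DESeq2 gave 7.5% and limma 52%, no filter gave 2.5%, and leaving out WNT replicate 3 at 17 h gave 15%. For WNT against Control in either direction, the share of all genes is given in brackets. DESeq2 called 1% at dawn (1.61%), 1% at 7 h (0.229%) and 1% at 10 h (1.14%). It called 19% at 17 h (0.458%) and 3% at 23 h (0.857%). Limma called 1% at dawn (2.05%), 2.5% at 7 h (0.663%) and 21.5% at 10 h (13.3%). In the night samples it called 0% at 17 h (0.0438%) and 1% at 23 h (1.1%). Without a filter 0% were called at dawn and 6.5% at 17 h. Leaving out WNT replicate 3 at 17 h gave 1.5% at dawn (0.648%), 19.5% at 3 h (6.82%), 0% at 17 h (0%) and 0.5% at 23 h (0.0768%). With each replicate left out in turn, the share ranged from 19.5% to 32.5% above 7 h and from 1% to 4% above dusk. For WNT against Control it ranged from 0% to 1% at dawn, from 2.5% to 26% at 3 h, from 0% to 0.5% at 7 h and again at 23 h, from 0% to 20.5% at 17 h, and from 11% to 19% for the mean effect. The median difference at 10 h was -0.041 against Control replicate 2 alone and 0.036 against Control replicate 4 alone. No share of all genes is set beside the values without a filter or the ranges with a replicate left out. A general change in calls cannot be told apart there. The cause of these shifts was not tested.

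The replicate numbers did not pair the samples: of 32 same-numbered Control and WNT libraries, 12 had deviations correlated above 0.1 (range -0.63 to 0.35, median 0.01), and 8 correlated best with their own number. With a replicate block, 0% of the members were called at dawn, 11.5% at 3 h, 7% at 17 h and 17% for the mean effect. The shares of all genes were 0.404%, 6.19%, 0.107% and 18.6%. Above WNT 7 h and WNT dusk were 29.5% and 4% of the members, and 1474 and 284 of 20525 genes tested.

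Depth limits the low members at dawn, 3 h and 23 h, where up to 13 of the 200 were at 0 counts in a library. In WNT at 3 h, replicates 1 and 2 held 3776794 and 2941158 counts, with 8 and 10 members at 0. Without names, what the genes do was not analysed here.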
